A study of Mus musculus with 27 samples.

Results

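Erythroid precursors take up more iron than most other cells and use nearly all of it to make haem, and 10 genes that carry out or govern this traffic are described here across 5 RNA-Seq experiments in mouse erythroleukaemia (MEL) cells. The genes are *Tfrc*, *Slc11a2*, *Steap3*, *Slc25a37*, *Abcb10*, *Abcg2*, *Slc40a1*, *Fth1*, *Ireb2* and *Aco1*. They were taken by symbol as genes of known role in this traffic, with earlier results of these data known, and all 10 were found among the 14558 genes that the 5 tables share. MEL cells are an immortalized line of erythroid progenitors that can be induced to mature in culture, and the clone used was C88.

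The experiments deplete members or partners of the LDB1 transcription factor complex. *Cbfa2t3*, which encodes the co-repressor ETO2, was knocked down (KD) with 2 lentiviral short hairpin RNAs, sh2 and sh3, with 2 libraries each against 2 controls. *Irf2bp2*, which encodes the co-repressor IRF2BP2, was knocked down with hairpin sh1 in 2 libraries against 2 controls, and *Kdm1a*, which encodes the histone demethylase LSD1, by shRNA in 2 libraries against 1 control. *Gfi1b*, a transcriptional repressor gene, was targeted by transfection of siRNAs in 2 libraries against 2 controls. The labels do not say which of the study's siRNAs each library received. The controls, which the labels call WT, are MEL cells that received a non-targeting shRNA or siRNA. The 5th experiment compares 2 libraries of induced with 2 of non-induced MEL cells, and the labels give neither the inducer nor the time. The study states a time for the shRNA KDs and for differentiation, which is not in the labels of these libraries. All libraries come from 1 cell line and from whole cultures, so that a change in the share of maturing cells and a change of RNA per cell cannot be told apart.

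Iron bound to transferrin enters the erythroid cell by the transferrin receptor TFRC. In the endosome it is reduced by STEAP3 and leaves by the divalent metal transporter SLC11A2 (DMT1). Mitoferrin 1 (SLC25A37) carries iron across the inner mitochondrial membrane for haem synthesis, and ABCB10, an ABC transporter of the same membrane, is known to stabilize it. ABCG2 exports haem and porphyrins from the cell, ferroportin (SLC40A1) exports iron, and the ferritin heavy chain FTH1 stores it. The iron regulatory proteins IRP1 (encoded by *Aco1*) and IRP2 (encoded by *Ireb2*) bind RNA hairpins called iron-responsive elements when iron is scarce. Bound at the 5′ end of a transcript they block its translation, and bound at the 3′ end they protect it from decay. RNA levels alone therefore do not show how much of these proteins is made.

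The genes are scattered over the mouse genome (mm9, GENCODE gene bounds). *Tfrc* lies at chr16:32609006-32632880 on the plus strand, *Slc11a2* at chr15:100218329-100255503 on the minus strand and *Steap3* at chr1:122087334-122169282 on the minus strand. *Slc25a37* lies at chr14:69859908-69903160 and *Abcb10* at chr8:126476359-126507022, both on the minus strand. Of the exporters, *Abcg2* lies at chr6:58534517-58642863 on the plus strand and *Slc40a1* at chr1:45964915-45982439 on the minus strand. *Fth1* lies at chr19:10057193-10059582, *Ireb2* at chr9:54711562-54760341 and *Aco1* at chr4:40090114-40146042, all on the plus strand.

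Matches to a pattern of the iron-responsive element were located in the transcripts, and they are shown because the IRPs bind such elements. The pattern searched on the transcript strand was a C, then 5 bases, the loop CAGTGN, and 5 bases that pair with the first 5. It was present once in the 5′ untranslated region (UTR) of *Fth1* and of *Slc40a1* and 4 times in the 3′ UTR of *Tfrc*. Of all genes with an annotated 5′ UTR 0.166% held it there, and of those with a 3′ UTR 0.623%. Positions are in mm9, each sequence runs 5′ to 3′ on the transcript strand with T for U, and the loop is in capitals.
*Fth1* 5′ UTR, chr19:10057222-10057250, plus strand: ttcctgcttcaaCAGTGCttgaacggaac
*Slc40a1* 5′ UTR, chr1:45982310-45982338, minus strand: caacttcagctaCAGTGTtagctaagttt
*Tfrc* 3′ UTR, chr16:32631305-32631333, plus strand: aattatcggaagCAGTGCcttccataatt
*Tfrc* 3′ UTR, chr16:32631684-32631712, plus strand: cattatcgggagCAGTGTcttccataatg
*Tfrc* 3′ UTR, chr16:32631749-32631777, plus strand: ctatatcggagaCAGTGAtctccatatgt
*Tfrc* 3′ UTR, chr16:32631796-32631824, plus strand: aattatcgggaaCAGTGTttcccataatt
The other 7 genes had no match in their UTRs, which says only that this pattern is not there. The pattern requires all 5 pairs and this loop, so that an element of another form would be missed.

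Between 44519414 and 57684583 reads were counted per library in the 3 shRNA experiments, and between 9929311 and 19623105 in the *Gfi1b* and induction experiments. All 10 genes passed the filter on low counts in every experiment, and the lowest of them lay far above the level of 3 counts, which is 0.302 counts-per-million (CPM) in the shallowest library. The knockdowns left different amounts of their target transcript. *Cbfa2t3* stood at 52.6 and 56.2 RPKM in the controls, 26.4 and 31.8 with sh2, and 16.0 and 19.0 with sh3. *Irf2bp2* was at 25.9 and 26.9 RPKM in its controls and 20.0 and 20.2 in the KD, and *Kdm1a* at 50.0 RPKM in its control and 5.69 and 5.43 in the KD. *Gfi1b* was at 68.9 and 83.8 RPKM in its controls, at 43.3 in the library labelled *Gfi1b* KD replicate 2, but at 122 in the library labelled *Gfi1b* KD replicate 1. That library goes against its label, and the counts of the *Gfi1b* experiment are given with and without it. All 8 erythroid marker genes (such as *Gata1* and *Klf1*) stood at or above 1 RPKM in every library, whereas the summed T and B cell markers stayed at or below 2.30 RPKM and the myeloid markers at or below 0.35. The fibroblast and liver markers summed to between 4.15 and 15.9 RPKM, and of these *Afp* alone reached 1 RPKM in every library.

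*Fth1* was by far the most abundant of the 10 transcripts in the control and non-induced libraries, and *Abcg2* and *Slc40a1* were the least. Levels are compared between genes only as the authors' RPKM, which divide by transcript length. In non-induced MEL cells *Fth1* stood at 1084 and 1134 RPKM, *Tfrc* followed at 199 and 214, and *Steap3* at 57.3 and 57.7. *Ireb2* (38.6 and 50.8), *Slc11a2* (32.6 and 34.3) and *Abcb10* (31.5 and 33.3) came next, and the ranges of the last pair overlap. *Aco1* (23.2 and 23.9) and *Slc25a37* (18.3 and 19.9) were lower. *Slc40a1* (7.01 and 9.96) and *Abcg2* (6.32 and 9.51) closed the order with overlapping ranges. In the *Cbfa2t3* controls *Fth1* was again first (1839 and 1851 RPKM) and *Slc40a1* last (5.81 and 6.38), but *Tfrc* (73.7 and 76.0) did not separate from *Steap3* (73.6 and 80.4). The starting level of *Tfrc* ranged over the experiments from 50.6 RPKM in an *Irf2bp2* control to 214 RPKM in a non-induced library. The tables were processed separately, and differences between their controls were not tested.

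**Figure D1:**
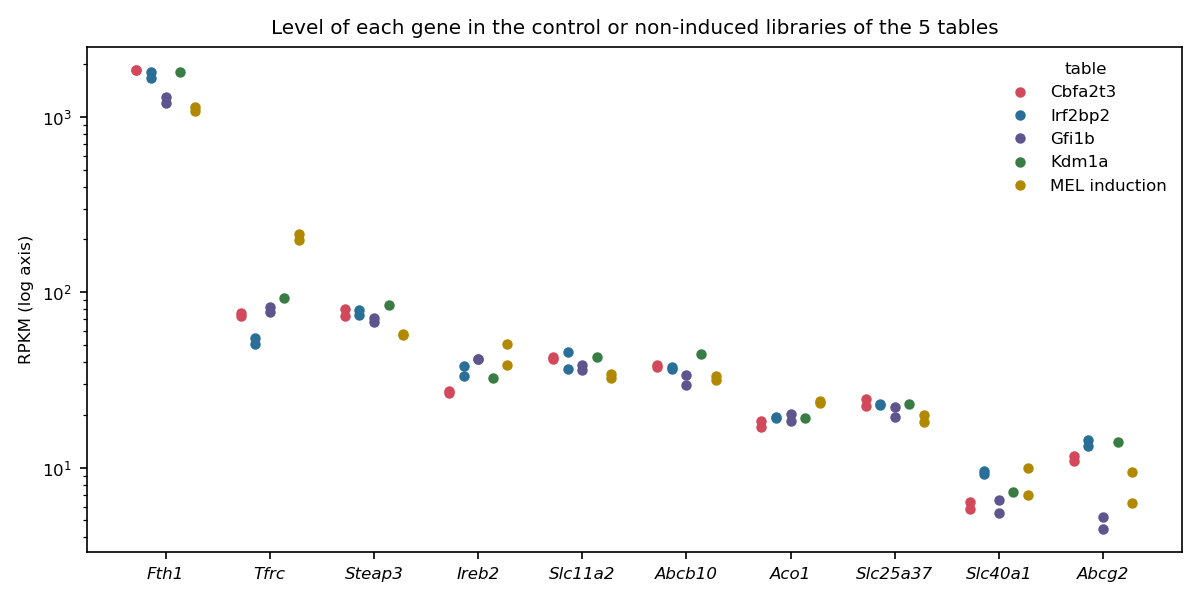
RPKM of the 10 genes (log axis) in each control or non-induced library, with genes ordered by their mean in non-induced MEL cells and coloured by experiment. *Fth1* lies at or above 1084 RPKM in every library, and the MEL induction experiment stands out by its *Tfrc* values of 199 and 214 RPKM.

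*Irf2bp2* KD raised 6 of the 10 genes, among them genes of iron uptake, of mitochondrial transport and of export. A gene was called changed at a Benjamini-Hochberg adjusted p of 0.05 or less in edgeR's quasi-likelihood test and a log2 fold change of at least 0.5 in either direction. By that rule 10.1% of the 12329 genes tested were called higher and 12.5% lower. The 6 genes called higher were *Tfrc*, *Slc11a2*, *Slc25a37*, *Abcb10*, *Abcg2* and *Slc40a1*, and none of the 10 was called lower. Over the 10 genes the log2 fold change had a median of 0.65, against -0.01 over all genes. This KD used 1 hairpin, so that effects of the hairpin itself cannot be told apart from those of the KD. *Tfrc*, *Slc11a2*, *Slc25a37*, *Abcb10* and *Abcg2* belong to the haem panel that the study drew from these same samples, as does *Steap3*, so that their count is not independent evidence of a direction.

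The largest rise after *Irf2bp2* KD was that of the transferrin receptor. *Tfrc* was at 267 and 244 CPM, scaled by edgeR's TMM method, in the controls and at 868 and 976 CPM after KD. The groups lie far apart, with a log2 fold change of 1.85 ± 0.10 (SE, n = 2 and 2) and an edgeR adjusted p of 2.1e-10. *Slc11a2*, which moves iron out of the endosome, was at 123 and 149 CPM in the controls and 223 and 220 CPM in the KD, a log2 fold change of 0.70 ± 0.09 (edgeR adjusted p = 1.2e-05). The endosomal reductase gene *Steap3* was at 199 and 211 CPM against 265 and 291 CPM. Its groups do not overlap and its adjusted p was 5.1e-04 in edgeR, but its log2 fold change of 0.44 ± 0.09 is below the limit of 0.5.

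The mitochondrial pair moved with it. *Slc25a37* rose from 94.1 and 94.7 CPM to 242 and 242 CPM, a 2.56-fold change of the means (log2 fold change 1.36 ± 0.08, edgeR adjusted p = 1.1e-09). *Abcb10* rose from 156 and 157 CPM to 483 and 518 CPM, a 3.19-fold change (log2 fold change 1.67 ± 0.09, edgeR adjusted p = 2.1e-10). For both genes the replicates differed far less than the groups. Of the exporters, *Abcg2* rose from 32.7 and 35.1 CPM to 98.3 and 111 CPM (log2 fold change 1.63 ± 0.09). Ferroportin *Slc40a1* rose less, from 30.9 and 31.8 CPM to 47.3 and 47.5 CPM (log2 fold change 0.60 ± 0.08, edgeR adjusted p = 2.4e-05).

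Iron storage and its regulators did not pass the test after *Irf2bp2* KD. *Fth1* was at 1552 and 1673 CPM in the controls and 1731 and 1796 CPM in the KD (log2 fold change 0.13 ± 0.09, edgeR adjusted p = 0.28). *Ireb2* had a log2 fold change of -0.05 ± 0.09 and *Aco1* one of 0.00 ± 0.08, each with overlapping groups. Groups did not overlap for 8 of the 10 genes, all higher in the KD, against 36.7% of all genes with this pattern in that direction. Markers of megakaryocytes moved with this experiment. The 5 genes of that list, each at or above 1 RPKM in these libraries and led by *Pf4*, summed to between 488 and 582 RPKM in the controls and between 1009 and 1058 in the KD, and their part in the result was not tested. The 8 erythroid markers summed to between 1171 and 1277 RPKM in the controls and between 1592 and 1604 in the KD.

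*Cbfa2t3* KD raised 3 of the 10 genes, the mitochondrial pair *Slc25a37* and *Abcb10* and the haem exporter *Abcg2*, all from the study's own haem panel. Over all 12537 genes tested 2.99% were called higher and 2.75% lower, and none of the 10 was called lower. Over the 10 genes the log2 fold change had a median of 0.36, against 0.00 over all genes. Both hairpins went the same way for these 3 genes, and sh3, which left less *Cbfa2t3* transcript, gave the higher level in each. Groups did not overlap for 7 of the 10 genes, all higher in the KD, a pattern that 19.1% of all genes showed.

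*Abcg2* changed most. It was at 28.7 and 27.2 CPM in the controls, 84.7 and 70.4 CPM with sh2, and 134 and 128 CPM with sh3 (log2 fold change over both hairpins 1.90 ± 0.26, SE, n = 4 and 2, edgeR adjusted p = 0.0023). *Abcb10* was at 161 and 166 CPM in the controls, 268 and 276 CPM with sh2, and 331 and 342 CPM with sh3 (log2 fold change 0.90 ± 0.11, edgeR adjusted p = 0.0012). The 3 groups stand in steps without overlap for both genes. *Slc25a37* followed the same steps, at 93.5 and 102 CPM, 148 and 147 CPM, and 230 and 254 CPM (log2 fold change 0.99 ± 0.23, edgeR adjusted p = 0.024). Its call was lost when either control was left out. With the replicate number as a block the edgeR adjusted p of *Slc25a37* was 0.053. For every gene the fit takes the libraries of both hairpins together, as replicates of the same KD. The hairpins differed from each other by test for *Abcg2*, *Abcb10* and *Slc25a37*, as given below. The SE and adjusted p of these genes therefore mix the difference between hairpins with the spread of replicates.

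The uptake genes had smaller log2 fold changes, and this contrast with the genes called was not tested. Their SE and adjusted p, and those of the other genes below, also come from the fit that takes both hairpins together. *Tfrc* was at 371 and 360 CPM in the controls, 403 and 414 CPM with sh2, and 535 and 545 CPM with sh3 (log2 fold change 0.38 ± 0.13, edgeR adjusted p = 0.10). *Slc11a2* was at 141 and 147 CPM, then 158 and 170 CPM, then 193 and 211 CPM (log2 fold change 0.34 ± 0.11, edgeR adjusted p = 0.079). *Steap3* was at 199 and 217 CPM in the controls, 199 and 222 CPM with sh2, and 257 and 269 CPM with sh3 (log2 fold change 0.19 ± 0.11, edgeR adjusted p = 0.35). None of these uptake genes passed the limits, and *Steap3* lay above its controls in both libraries with sh3 and in 1 with sh2. *Slc40a1* was at 21.5 and 19.5 CPM in the controls, 26.6 and 24.4 CPM with sh2, and 36.0 and 35.5 CPM with sh3. Its log2 fold change of 0.58 ± 0.17 missed the threshold (edgeR adjusted p = 0.057). *Fth1*, *Ireb2* and *Aco1* had log2 fold changes of 0.03 ± 0.05, -0.04 ± 0.06 and -0.01 ± 0.07. The megakaryocyte markers summed to between 500 and 530 RPKM in the controls and between 607 and 720 in the KD, and their part was not tested. The erythroid markers went from between 1403 and 1482 RPKM in the controls to between 1603 and 1656 with sh2 and between 1732 and 1766 with sh3.

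The hairpins differed from each other in this gene set. Between sh3 and sh2, *Slc25a37* (log2 difference 0.71 ± 0.07, edgeR adjusted p = 8.2e-05) and *Abcg2* (0.75 ± 0.08, edgeR adjusted p = 1.9e-04) passed both limits, each higher with sh3, where 1.92% of all genes were called higher. With no limit on the size, 7 of the 10 genes were higher with sh3 at an adjusted p of 0.05, against 7.8% of all genes. The other 5 were *Tfrc* (0.40 ± 0.05), *Slc11a2* (0.30 ± 0.06), *Steap3* (0.32 ± 0.07), *Abcb10* (0.31 ± 0.05) and *Slc40a1* (0.49 ± 0.08). *Fth1*, *Ireb2* and *Aco1* were not among them. In a fit that gives each hairpin its own term, added after the data were seen, sh2 called *Slc25a37*, *Abcb10* and *Abcg2* higher (3.37% of all genes), and sh3 called these and also *Tfrc* (0.56 ± 0.05) and *Slc40a1* (0.80 ± 0.08) higher (4.25% of all genes). The comparisons of sh2 and sh3 with the controls share those controls.

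The KD of *Irf2bp2* and that of *Cbfa2t3* were then compared directly, by testing the difference of their effects in 1 fit with separate controls. *Tfrc* rose more with *Irf2bp2* KD by 1.48 ± 0.18 on the log2 scale (edgeR adjusted p = 2.0e-04), and *Abcb10* by 0.78 ± 0.14 (edgeR adjusted p = 0.0025). Among all genes 6.32% were called higher in this comparison. The other 8 genes did not pass it. For *Abcg2* the difference was -0.27 ± 0.31, and for *Slc25a37* 0.36 ± 0.28, so that a difference of moderate size cannot be told from none for either. The *Cbfa2t3* effect was taken over sh2 and sh3, which differed by test for both of these genes. The comparison was not made for each hairpin. The experiments were deposited as separate tables with separate controls, and other differences between the experiments cannot be told apart from those of the KDs.

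**Figure D2:**
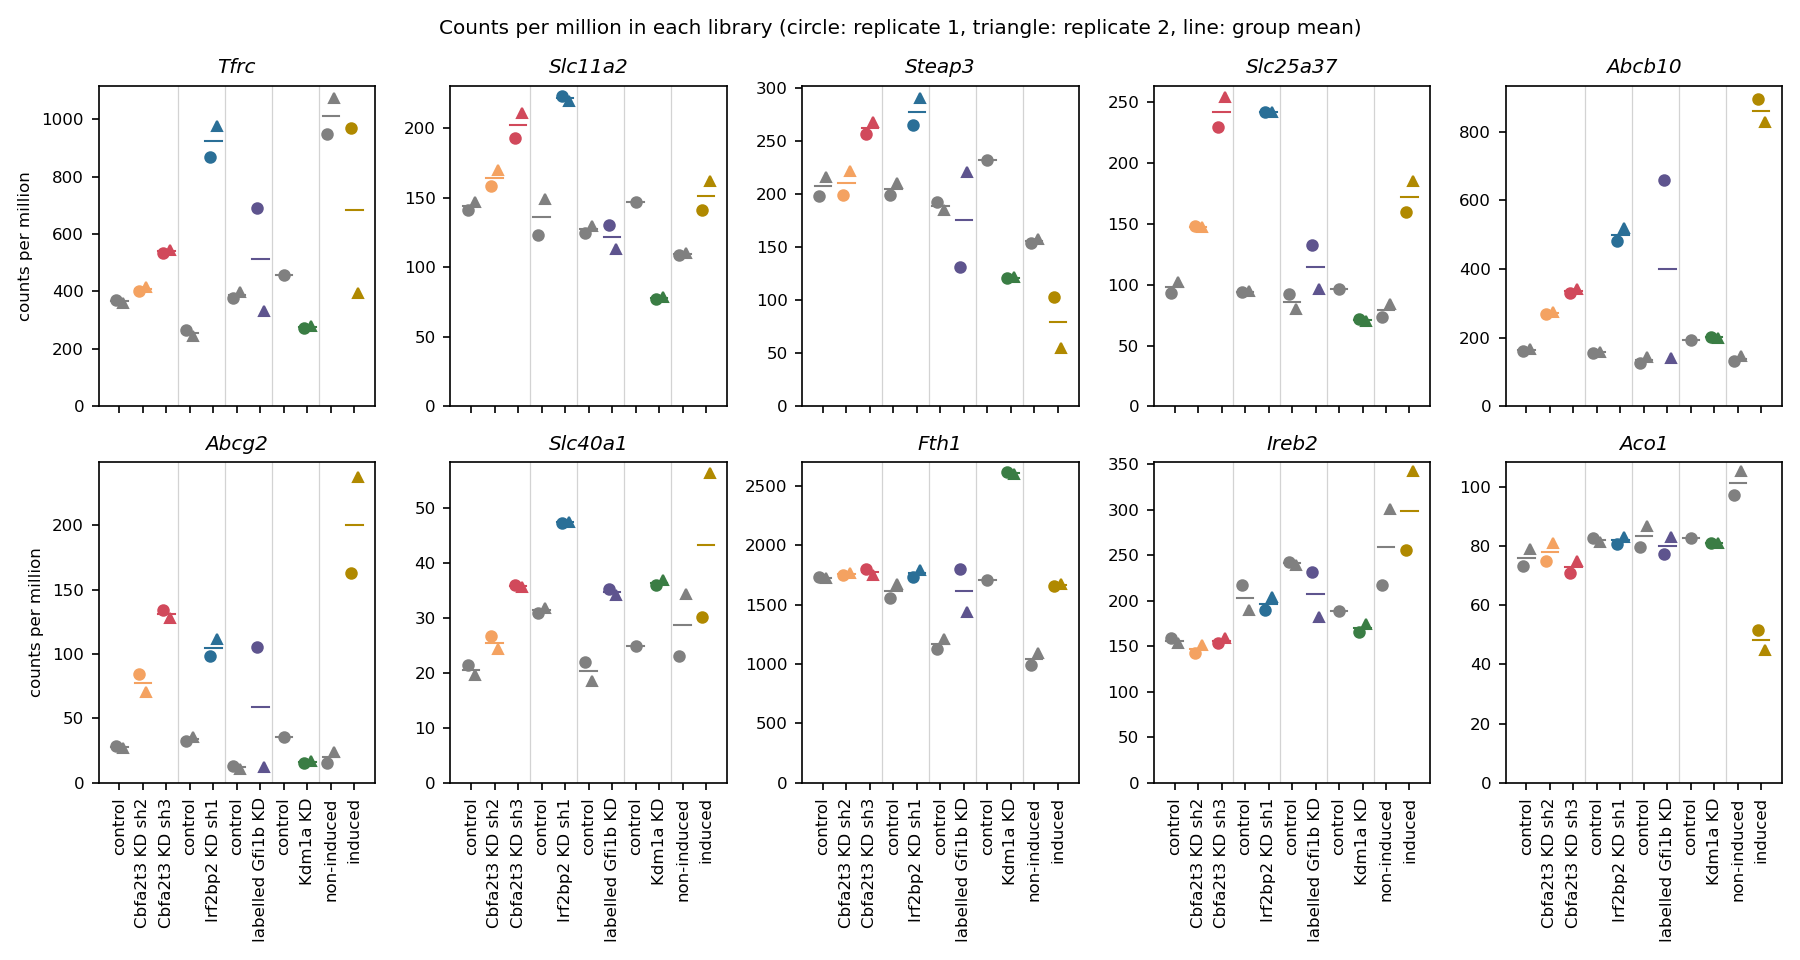
CPM of each of the 10 genes in every library, on an axis starting at 0, with controls in grey, circles for replicate 1, triangles for replicate 2 and lines for group means. *Abcb10* and *Abcg2* lie above their controls in *Cbfa2t3* KD, *Irf2bp2* KD and induced cells, and in only 1 of the 2 libraries labelled *Gfi1b* KD.

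*Tfrc*, *Slc11a2* and *Steap3* were lower in *Kdm1a* KD than in its control. With 1 control library the differences are given as a description, and a gene was counted when the 2 KD libraries each lay at least 0.5 log2 units to 1 side of the control. By that rule 4 of the 10 genes were lower (*Tfrc*, *Slc11a2*, *Steap3* and *Abcg2*), against 9.8% of 12628 genes, and 2 were higher (*Slc40a1* and *Fth1*), against 13.1%. The median log2 difference was -0.30, against 0.00 over all genes. *Tfrc* was at 458 CPM in the control and 273 and 278 CPM in the KD, *Slc11a2* at 147 CPM against 77.1 and 78.6 CPM, and *Steap3* at 232 CPM against 121 and 122 CPM. These 3 genes were lower in both KD libraries, by mean log2 differences of -0.73, -0.92 and -0.94. Of 9 other genes of iron uptake 4 were higher by the same rule and 0 lower, with a median of 0.41.

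*Abcg2* showed the largest difference, at 35.1 CPM in the control and 15.4 and 16.8 CPM in the KD (mean log2 difference -1.13). *Slc25a37* was lower by less than the limit (96.6 CPM against 72.2 and 69.8 CPM), and *Abcb10* was at 193 CPM against 202 and 200 CPM. Neither of the mitochondrial pair passed the limit. Ferroportin *Slc40a1* was higher, at 24.8 CPM against 35.9 and 36.9 CPM. *Fth1*, the storage gene, was at 1705 CPM in the control and 2618 and 2604 CPM in the KD (mean log2 difference 0.61). This was the highest *Fth1* level of all 21 RNA-Seq libraries on this scale. *Ireb2* (-0.15) and *Aco1* (-0.03) stayed within the limit. The megakaryocyte markers summed to 437 RPKM in the control and to between 385 and 482 in the KD. The 8 erythroid markers summed to 1324 RPKM in the control and to between 1211 and 1244 in the KD, and the T and B cell markers to 0.288 and to between 1.43 and 1.60. The fibroblast and liver markers summed to 13.5 RPKM in the control and to between 4.15 and 5.19 in the KD, and the part of these lists was not tested. With edgeR's quasi-likelihood test, in which the single control is assumed to vary like the KD libraries, the same 6 genes passed the limits in the same directions (adjusted p from 4.6e-10 to 1.8e-05), where 12.4% of all genes were called higher and 10.1% lower. The spread between control libraries is not known in this experiment.

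In induced MEL cells 4 of the 10 genes were called higher and 2 lower. The genes called higher were *Abcg2*, *Abcb10*, *Slc25a37* and *Fth1*, and those called lower *Steap3* and *Aco1*. Over all 11713 genes tested 12.4% were called higher and 14.8% lower. Over the 10 genes the log2 fold change had a median of 0.53, against -0.02 over all genes. *Abcg2* rose from 15.3 and 24.1 CPM to 163 and 237 CPM (log2 fold change 3.35 ± 0.31, SE, n = 2 and 2, edgeR adjusted p = 1.1e-05). *Abcb10* rose from 132 and 146 CPM to 895 and 828 CPM (log2 fold change 2.63 ± 0.25, edgeR adjusted p = 1.1e-05). These 2 transporters stood 10.1-fold and 6.20-fold above the non-induced means.

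*Slc25a37* rose from 73.9 and 84.3 CPM to 160 and 185 CPM (log2 fold change 1.12 ± 0.24, edgeR adjusted p = 0.0042). *Fth1* rose from 993 and 1089 CPM to 1655 and 1671 CPM (log2 fold change 0.68 ± 0.23, edgeR adjusted p = 0.043). The call of *Fth1* is near the threshold, and it was lost when any 1 library was left out (adjusted p from 0.060 to 0.21). *Aco1*, which passed the limits in no KD, fell from 97.5 and 105 CPM to 51.5 and 44.7 CPM (log2 fold change -1.08 ± 0.24, edgeR adjusted p = 0.0056). *Steap3* fell from 155 and 158 CPM to 103 and 55.1 CPM (log2 fold change -0.98 ± 0.29, edgeR adjusted p = 0.022). Its adjusted p was 0.091 without non-induced replicate 1, 0.12 without non-induced replicate 2 and 0.27 without induced replicate 2.

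The induced replicates disagreed on *Tfrc*. It was at 948 and 1074 CPM in the non-induced libraries, at 970 CPM in induced replicate 1 and at 394 CPM in induced replicate 2 (log2 fold change -0.57 ± 0.33, edgeR adjusted p = 0.22). Replicate 1 thus lies within the non-induced range and replicate 2 far below it. Without induced replicate 1 the log2 fold change was -1.37 (edgeR adjusted p = 0.0034), and *Slc40a1* was then also called, at 0.97 (edgeR adjusted p = 0.035). *Slc40a1* itself was at 23.0 and 34.3 CPM before and 30.1 and 56.4 CPM after induction, with overlapping groups (log2 fold change 0.60 ± 0.33, edgeR adjusted p = 0.20). *Slc11a2* was at 109 and 110 CPM against 141 and 162 CPM (log2 fold change 0.47 ± 0.23, edgeR adjusted p = 0.15), and *Ireb2* had a log2 fold change of 0.21 ± 0.26. Groups did not overlap for 5 of the 10 genes that were higher (*Slc11a2* and the 4 called), against 32.8% of all genes, and for 2 that were lower, against 34.5%. The megakaryocyte markers summed to between 417 and 595 RPKM before induction and between 843 and 1092 after it, with *Ppbp* at or under 3 counts in the induced cells, and their part was not tested. The erythroid markers summed to between 902 and 1068 RPKM before induction and between 1237 and 1373 after it, and the fibroblast and liver markers to between 13.7 and 15.9 RPKM before and between 4.5 and 8.25 after it.

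**Figure D3:**
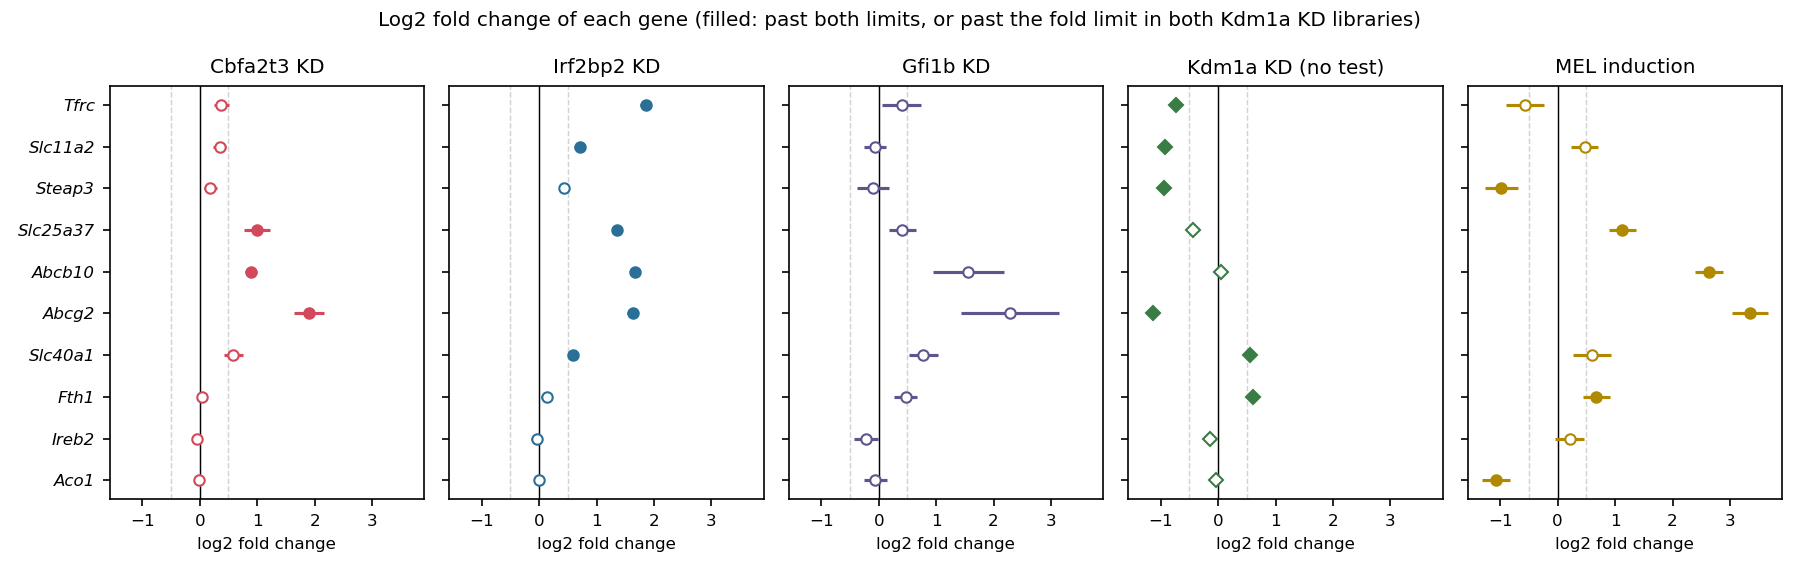
Log2 fold change of each gene in the 5 experiments. Circles with bars are edgeR estimates ± SE, diamonds with lines the mean and range of the 2 *Kdm1a* KD libraries against their single control, and filled symbols passed the limits. *Abcg2* ranges from -1.13 in *Kdm1a* KD to 3.35 in induced cells, and *Ireb2* is filled in no panel.

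In the *Gfi1b* experiment no gene passed the limits, either among these 10 or among all 11190 tested (0%). At an unadjusted p under 0.05 edgeR listed 784 genes (7.01%), of which 3 were in this set, *Abcb10*, *Abcg2* and *Slc40a1*. By the limits on adjusted p and fold change DESeq2 called 59 of 10973 genes (0.538%), none of them in this set. The libraries labelled KD disagree with each other. *Abcb10* was at 127 and 145 CPM in the controls, 660 CPM in the library labelled replicate 1 and 142 CPM in replicate 2. *Abcg2* was at 13.1 and 11.0 CPM, then 105 and 12.1 CPM, and *Tfrc* at 378 and 399 CPM, then 692 and 332 CPM. For these 3 genes replicate 1, the library with more *Gfi1b* than the controls, stands apart, and replicate 2 lies between the controls or, for *Tfrc*, below them. The libraries labelled KD lay above both controls for 3 genes (*Slc25a37*, *Slc40a1* and *Fth1*), against 19.7% of all genes, and below them for 1 (*Ireb2*), against 19.6%. Without replicate 1 the remaining library lay above both controls for 4 of the 10 genes (37.3% of all genes) and below them for 3 (36.6%). The megakaryocyte markers of the 2 libraries labelled KD, replicate 1 first, summed to 563 and 138 RPKM against 238 and 288 in the controls, and the T and B cell markers to 0.710 and 2.30 RPKM against 0.10 and 0.23. The part of either list was not tested.

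With replicate 1 as the only library labelled KD, 7 of the 10 genes passed, where 26.7% of all genes did. *Abcg2* (log2 fold change 3.10), *Abcb10* (2.26), *Tfrc* (0.81), *Slc40a1* (0.77), *Fth1* (0.60) and *Slc25a37* (0.60) were higher and *Steap3* (-0.55) lower. With replicate 2 alone none of the 10 passed, where 3.48% of all genes did and DESeq2 called 85 genes and none of the 10. *Abcb10* and *Abcg2* then had log2 fold changes of 0.06 and 0.00. Both fits assume that the lone library varies like the controls. With no filter on low counts *Abcb10* and *Abcg2* were called over both libraries, where 2.41% of all genes were. *Slc40a1* was above its controls in both libraries, at 22.0 and 18.4 CPM in the controls and 35.2 and 34.2 CPM in those labelled KD, as were *Fth1* (1129 and 1210 CPM, then 1798 and 1439 CPM) and *Slc25a37* (92.1 and 80.3 CPM, then 132 and 96.7 CPM). The difference of the *Gfi1b* and *Cbfa2t3* effects passed the limits for none of the 10 genes (0.69% of all genes). Without replicate 1 it was called for 2 genes, *Abcb10* (-0.87) and *Abcg2* (-1.94), where 8.84% of all genes were. Without replicate 2 it was called for 4 genes, *Abcb10* (1.35), *Abcg2* (1.19), *Fth1* (0.56) and *Steap3* (-0.75), where 30.1% were.

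The wider iron and haem traffic was described with 5 lists of 53 genes that are not among the 10. After *Irf2bp2* KD 6 of the 42 genes tested were called higher and 4 lower, beside 10.1% and 12.5% of all genes. *Hmox1*, which encodes the haem-degrading enzyme haem oxygenase 1, fell most (log2 fold change -2.54 ± 0.11), and *Ncoa4*, the cargo receptor for autophagy of ferritin, fell by 1.66 ± 0.08. *Isca1* (0.83 ± 0.08) and *Glrx5* (0.79 ± 0.09) of iron-sulphur cluster assembly, the mitochondrial carrier *Slc25a38* (0.73 ± 0.08), the porphyrin transporter gene *Abcb6* (0.81 ± 0.08) and the biliverdin reductase gene *Blvrb* (0.78 ± 0.10) rose. After *Cbfa2t3* KD 3 of 44 were called higher and none lower, beside 2.99% and 2.75% of all genes. They were *Fam132b*, which encodes the hormone erythroferrone (0.97 ± 0.18), *Blvrb* (0.65 ± 0.07) and the metal transporter gene *Slc39a8* (0.61 ± 0.15).

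In *Kdm1a* KD 8 of the 44 genes were higher and 6 lower by the fold rule, beside 13.1% and 9.8% of all genes. *Ncoa4* was at 139 CPM in the control and 672 and 692 CPM in the KD (mean log2 difference 2.29), and *Hmox1* at 31.8 CPM against 141 and 146 CPM (2.17). *Ncoa4* and *Hmox1* therefore stood on opposite sides of their controls in *Kdm1a* KD and *Irf2bp2* KD, a contrast that was not tested. The iron-sensing gene *Hfe* was also higher (1.72) at a low level, 0.184 CPM in the control and 0.70 CPM in both KD libraries. The endolysosomal channel gene *Mcoln1* was at 13.5 CPM in the control and 27.8 and 24.7 CPM in the KD (0.95), and the iron reductase gene *Cybrd1* (0.69) and the ferroxidase gene *Cp* (0.89) were higher at levels under 2 CPM. *Fam132b* (-0.95) and the haem transporter genes *Slc46a1* (-0.71) and *Slc48a1* (-0.64) were lower. Of the iron-sulphur genes *Hscb* was higher (0.81), and *Isca1* (-0.90) and *Glrx5* (-0.76) were lower. In induced cells 6 of 43 were called higher and 3 lower, beside 12.4% and 14.8% of all genes. *Abcb6* (1.59 ± 0.25), *Glrx5* (1.51 ± 0.24), *Isca1* (1.28 ± 0.25), *Slc39a8* (0.96 ± 0.26), *Blvrb* (0.95 ± 0.24) and the ferritin light chain gene *Ftl1* (0.91 ± 0.28) rose. *Hmox1* (-1.59 ± 0.41) and the mitochondrial chaperone gene *Hspa9* (-1.48 ± 0.28) fell. The list of IRP turnover genes (*Fbxl5*, *Skp1a*, *Cul1* and *Rbx1*) had none of its 4 members past the limits in any experiment with all libraries. In the *Gfi1b* experiment none of 42 was called. Without replicate 1, an alternative added after the data were seen, 1 was called higher and 1 lower, where 3.48% of all genes were called in either direction. Without replicate 2 there were 5 and 6, where 26.7% of all genes were.

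Binding sites of ETO2 and IRF2BP2 were read from the deposited list of 13229 sites in uninduced MEL cells, of which 2730 are shared, 1760 bind ETO2 only and 8739 bind IRF2BP2 only. A site was given to the gene with the nearest transcription start within 1 Mb in mm9. Of the 10 genes 8 were the nearest gene of at least 1 site, against 29.2% of 22238 protein-coding genes. The 22238 include genes that did not pass the filter on low counts, whereas all 10 passed it. The 10 were also chosen with earlier results of these data known. Shared sites were nearest to *Steap3*, *Abcb10* and *Fth1*, 3 of the 10 genes (9.20% of all). ETO2-only sites were nearest to 4 (6.66%) and IRF2BP2-only sites to 6 (23.0%). *Slc25a37* and *Ireb2* were nearest to none. The closest site of any class to the start of *Slc25a37* was an ETO2-only site 19879 bases upstream (3.5-fold over IgG), and the closest shared site lay 33410 bases upstream (15.3-fold), both nearer to other genes. The closest site of any class to *Ireb2* was a shared site 159198 bases away (6-fold). The list carries no replicate, and fold enrichment is the ratio of ChIP to IgG reads that the authors gave.

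*Abcb10* had the most sites. Its shared site (22.4-fold over IgG, higher than 93.9% of the sites) lay 5721 bases upstream of the start, with 2 IRF2BP2-only sites just beyond it at 7396 and 7719 bases and an ETO2-only site in an intron. *Steap3*, which was called in neither *Cbfa2t3* KD nor *Irf2bp2* KD, had the strongest shared site of the 10 genes, in an intron 13337 bases downstream of the start (26.5-fold, higher than 96.1% of the sites). *Tfrc* had a single ETO2-only site 698 bases upstream of its start (5.80-fold), below the median of all sites (7.33-fold), and *Slc40a1* one 993 bases upstream (16.7-fold). *Abcg2* held an IRF2BP2-only site (6.25-fold) and an ETO2-only site (10.2-fold), both in introns. An intron of *Slc11a2* held a shared site (5.36-fold) whose nearest start is that of *Gm5475*. The only site at *Aco1*, which passed the limits in no KD, was an IRF2BP2-only site at its first exon (13.5-fold). Of the 6 genes called in *Irf2bp2* KD, 5 were nearest to a site of some class, and of the other 4 genes 3 were.

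**Figure D4:**
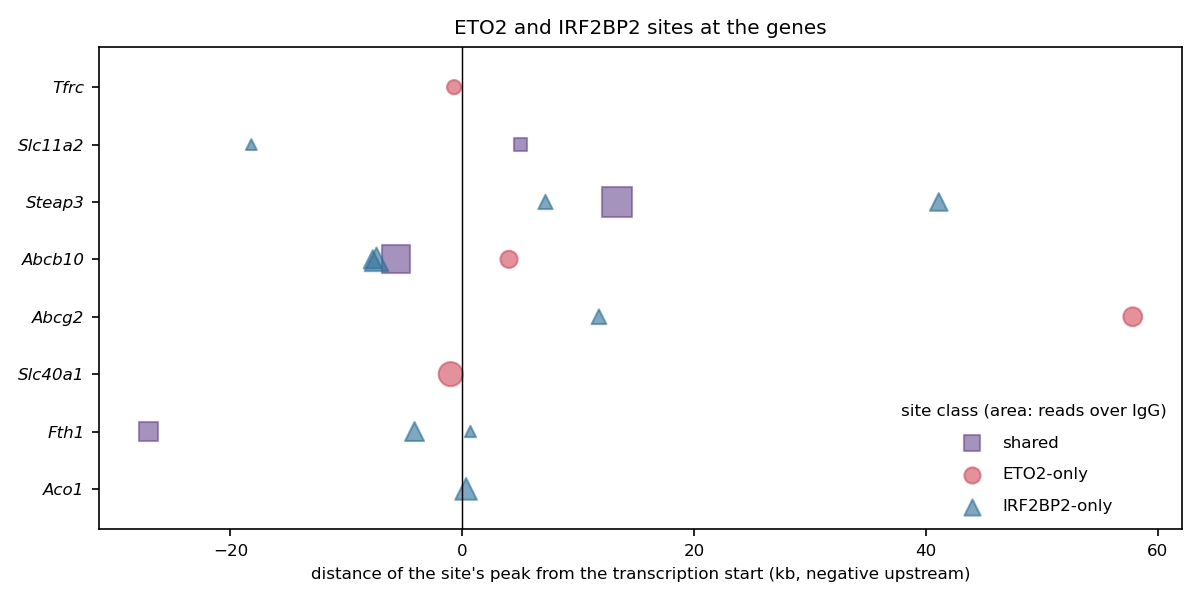
Distance of each ETO2 or IRF2BP2 site from the transcription start of the gene (kb, negative upstream), with the area of a symbol proportional to the ratio of reads over IgG and its shape and colour giving the class. The largest symbols are the shared sites of *Steap3* (26.5-fold) and *Abcb10* (22.4-fold).

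GATA1, the DNA-binding partner of the complex, recognizes GATA motifs, and TAL1 with an E protein recognizes part of an E-box placed before them. The 300 bases around each site's centre were searched on both strands for AGATAA and for a composite E-box and GATA pattern, a CTG followed after a short gap by a GATA core, which can overlap an AGATAA. At the 4 shared sites of these genes AGATAA was found in 4, against 62.7% of all shared sites, and the composite pattern in 2, against 35.3%. At their 4 ETO2-only sites AGATAA was found in 2 (60.2% of all) and the composite in 2 (35.6%). At their 9 IRF2BP2-only sites these were found in 4 (27.5%) and 1 (7.94%). The matches at the shared and ETO2-only sites are shown because ETO2 was bound there, at genes called in *Cbfa2t3* or *Irf2bp2* KD and at others that were not. They are given 5′ to 3′ on the strand that holds the motif, in mm9, with the motif in capitals.
*Abcb10*, shared, chr8:126512734-126512763, minus strand: gctaagggagaaAGATAAgaaaagctggca
*Steap3*, shared, chr1:122155975-122156003, plus strand: atttcaCTGGAAATGGTAGATAAgggcac
*Slc11a2*, shared, chr15:100250537-100250566, plus strand: gggtgtcagtgaAGATAAgaactggctgtc
*Fth1*, shared, chr19:10030034-10030062, minus strand: agcaggCTGTGTCTCTTAGATAAgccacc
*Fth1*, shared, chr19:10030152-10030180, plus strand: gtggtcCTGAGGTGCACAGATAAggttcc
*Tfrc*, ETO2-only, chr16:32608193-32608222, plus strand: gaattttagagcAGATAAgccaaaggtcaa
*Slc40a1*, ETO2-only, chr1:45983462-45983490, plus strand: tgaggtCTGCAGAACCGAGATAGggcttt
*Abcg2*, ETO2-only, chr6:58592306-58592334, minus strand: gagtccCTGAGACTAACTGATAAgtcagg
*Abcg2*, ETO2-only, chr6:58592490-58592519, plus strand: catgcaggaaggAGATAAgaacatactcgc
The match at *Abcb10* lies 6 bases from the centre of its site. A match describes the sequence and does not show which factor is bound.

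Over the 21 RNA-Seq libraries, each set against its own controls, the members did not follow 1 pattern. *Abcb10* and *Abcg2* were closest to each other (Pearson r = 0.92), *Slc25a37* correlated with *Abcg2* (r = 0.87), *Slc11a2* (r = 0.87) and *Abcb10* (r = 0.80), and *Steap3* with *Tfrc* (r = 0.72). *Fth1* ran against *Steap3* (r = -0.80), and *Aco1* against *Abcb10* (r = -0.70). Among 11053 genes, those most like *Abcb10* included *Samd14* and *Alas2* (r = 0.98 each), of which *Alas2* encodes the first enzyme of haem synthesis in erythroid cells. Those most like *Abcg2* were *Gypc*, *Apol11b* and *Phyhip* (r = 0.97 to 0.98), and like *Slc25a37* *Pigq*, *Epn1* and *Ptdss2* (r = 0.95 to 0.97). *Tfrc* was most like *Plek2*, *Pick1* and *Birc5* (r = 0.88 to 0.90), *Slc11a2* like *Tada2b*, *Il1r1* and *Trappc10* (r = 0.96 to 0.97), and *Steap3* like *Ppp1r14b*, *Tomm5* and *Slc29a1* (r = 0.96 to 0.97). *Fth1* was most like the histone genes *Hist1h2be*, *Hist1h2bc* and *Hist1h2bn* (r = 0.97 each). *Slc40a1* was most like *Specc1*, *Nfs1* and *Ezr* (r = 0.83 to 0.89), *Ireb2* like *Snx27*, *Galnt1* and *Gabpa* (r = 0.88 to 0.91), and *Aco1* like *Sox13*, *Dbndd2* and *Mrpl39* (r = 0.97 to 0.98). Libraries of an experiment share their controls, and these values are descriptions. Without the library labelled *Gfi1b* KD replicate 1 the correlation of *Abcb10* with *Abcg2* was 0.91, as was that of *Abcg2* with *Slc25a37*, and that of *Steap3* with *Tfrc* was 0.80.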

How the data were processed

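RNA-Seq was analysed in 21 libraries of MEL cells. The authors mapped reads with Tophat2 to mm9 and counted them per RefSeq gene, and the deposited tables give raw counts and RPKM per library, with the authors' own fold changes and p-values, which were not used. The strand setting of the counting is not given in the sources used here, and reads of processed *Fth1* copies may add to or be lost from that gene. The site list was deposited with the ratio of ChIP to IgG reads and an adjusted p-value per site, and 4 of its columns with per-sample values were not used. Its class code was read as ETO2-only, shared or IRF2BP2-only by the class sizes that the study states. Counts were tested in R 4.3.3 with edgeR 4.0.16 (TMM, filterByExpr, quasi-likelihood test, Benjamini-Hochberg adjustment over all genes tested), each table on its own, and differences between KDs in 1 fit over both tables. *Kdm1a* KD was described with CPM and a prior count of 2, with edgeR as an alternative. DESeq2 1.42.0, other filters, limits and normalization, a replicate block and the omission of each library were alternatives. Motifs were searched in Python 3.11.15 with pysam 0.24.0 on the mm9 genome with GENCODE genes. Symbols were taken from the tables, *Flvcr1* and *Flvcr2* under their older names *Mfsd7b* and *Mfsd7c*, and 3 of the 53 further genes were matched in no table. Named genes are the 10 members, the targeted genes, up to 3 called genes per further list with the largest change, and the 3 genes most correlated with each member, of which 1 is not reported here. Some marker genes, the IRP turnover list and the gene nearest to a site are named beside these. The study's methods describe independent biological replicates, but the labels do not identify cultures. The members and lists were chosen with earlier results of these data known.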

Additional observations from a re-analysis of the deposited data

Results flagged for a closer look

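Within *Cbfa2t3* KD the hairpins differed by test. *Slc25a37* was higher with sh3 than with sh2 by 0.71 and *Abcg2* by 0.75 on the log2 scale (edgeR adjusted p of 8.2e-05 and 1.9e-04), in both sh3 libraries against both sh2 libraries.

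Between knockdowns, *Tfrc* rose more with *Irf2bp2* KD than with *Cbfa2t3* KD by 1.48 and *Abcb10* by 0.78 (edgeR adjusted p of 2.0e-04 and 0.0025). The *Cbfa2t3* effect was taken over both hairpins.

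Several genes lay above every control library in one experiment and below it in another, and these differences between experiments were not tested. Between *Irf2bp2* KD and *Kdm1a* KD the log2 fold changes were apart by 2.75 for *Abcg2*, 2.58 for *Tfrc*, 1.80 for *Slc25a37*, 1.62 for *Slc11a2* and 1.38 for *Steap3*. Between *Cbfa2t3* KD and *Kdm1a* KD they were apart by 3.03 for *Abcg2*, 1.44 for *Slc25a37*, 1.26 for *Slc11a2* and 1.11 for *Tfrc*. *Steap3* was higher in *Irf2bp2* KD and lower in induced cells, by 1.42 between them. Higher in induced cells and lower in *Kdm1a* KD were *Abcg2* (3.35 and -1.13), *Slc25a37* (1.12 and -0.44) and *Slc11a2* (0.47 and -0.92). *Kdm1a* KD has 1 control, and each of these pairs compares separate tables, so that other differences between the experiments cannot be told apart from those of the treatments.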

How the results depend on the processing

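The calls of *Abcb10* and *Abcg2* in *Cbfa2t3* KD, and of *Tfrc*, *Abcb10*, *Abcg2* and *Slc25a37* in *Irf2bp2* KD, held under the alternatives run with the limit of 0.5, and *Slc40a1* and *Slc25a37* in *Cbfa2t3* KD did not keep their side of it. *Slc40a1* was called there by DESeq2 (adjusted p = 0.0038) and with no filter on low counts (adjusted p = 0.018), and without sh2 replicate 1 (0.049) or sh2 replicate 2 (0.015). With a log2 limit of 1 the calls were 1 in *Cbfa2t3* KD (2.21% of all genes), 1 in *Kdm1a* KD (*Abcg2*, 6.84%), 0 between sh3 and sh2 (0.518%), and 1 in the difference of the *Irf2bp2* and *Cbfa2t3* effects (*Tfrc*, 3.71%). With no limit 7 genes differed between sh3 and sh2 (13.7%). Against the controls sh3 alone gave 5 calls (9.19%), also in the fit with all 3 groups chosen after seeing the data. With no filter on low counts the *Gfi1b* experiment gave 2 calls (*Abcb10* and *Abcg2*) and 411 calls over all genes, and the cause was not tested.

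Leaving out each library in turn gave 2 to 4 calls in *Cbfa2t3* KD (2.19% to 6.39% of all genes), 6 to 7 in *Irf2bp2* KD (20.2% to 24%), 4 to 7 in induced cells (12.5% to 27.8%), 0 to 7 in the *Gfi1b* experiment (0% to 26.7%) and 0 to 4 in the difference of the *Gfi1b* and *Cbfa2t3* effects (0% to 30.1%). Directions turned, over these omissions, for *Tfrc* (-0.23 to 0.81), *Slc11a2* (-0.17 to 0.02), *Steap3* (-0.55 to 0.22) and *Abcg2* (-0.0034 to 3.10) in the *Gfi1b* experiment, and for *Tfrc* (-0.63 to 0.42), *Steap3* (-0.75 to 0.0044), *Abcb10* (-0.87 to 1.35) and *Abcg2* (-1.94 to 1.19) in its difference from *Cbfa2t3* KD. Values near 0 also turned: *Aco1* in *Cbfa2t3* KD (-0.068 to 0.042), *Ireb2* (-0.14 to 0.057) and *Aco1* (-0.017 to 0.029) in *Irf2bp2* KD, *Ireb2* on induction (-0.021 to 0.45), *Fth1* between sh3 and sh2 (-0.0047 to 0.030), and *Slc40a1* (-0.080 to 0.10), *Ireb2* (-0.093 to 0.10) and *Aco1* (-0.039 to 0.070) between the *Irf2bp2* and *Cbfa2t3* effects. With sh2 alone *Aco1* was at 0.034, and at 0.037 in the fit of 3 groups, where *Ireb2* was at 0.0021 with sh3. *Ireb2* between the *Irf2bp2* and *Cbfa2t3* effects was at 0.00063 with DESeq2 size factors, 0.00064 with DESeq2, 0.016 with no filter and 0.0055 with at least 10 counts in every library, and *Tfrc* between the *Gfi1b* and *Cbfa2t3* effects at 0.0087 with no filter.

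With the replicate number as a block *Cbfa2t3* KD gave 2 calls (*Slc25a37* lost, adjusted p = 0.053, 5.04% of all genes), *Irf2bp2* KD 6 (23%), the *Gfi1b* experiment 0 (0%), induction 6 (33.4%), and sh3 against sh2 2 (4.63%). The labels give only shared numbers, and same-numbered libraries correlated in their deviations by 0.0015 to 0.25. Per kb of the longest transcript the order of levels had *Ireb2* at rank 3, *Abcb10* at 4, *Steap3* at 5 and *Slc11a2* at 6. The *Gfi1b* and induction libraries were the shallowest, and 2 control libraries per experiment (1 for *Kdm1a*) limit every comparison.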
